A study of Mus musculus with 15 samples.

Results

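The interferon-stimulated genes examined here are 33 genes chosen by name, of 54736 genes in the table: effectors that act against viruses, the sensors that detect foreign RNA, and the factors that carry the interferon signal to the nucleus. They were chosen with earlier results of these data known. All 33 were found in the table by symbol. Their mean over all libraries was at least 5 TPM (a length-scaled transcript abundance) for 8 genes, between 1 and 5 TPM for 19, and under 1 TPM for 6, which were not tested. The RNA was from punched medial prefrontal cortex, taken from C57BL/6 males of 8 to 10 weeks. The sample titles name 7 wild-type libraries (WT) and 8 libraries titled KO, which here are Df(h15q13)/+ mice that carry in every cell 1 copy, in place of a pair, of the mouse segment matching the human 15q13 microdeletion. The design text of the series gives the numbers the other way round, and the titles were used. The 2 groups are described as littermates, no treatment is named, and each library was taken as 1 mouse, so p-values measure the spread between libraries.

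Type I interferons bind a receptor whose kinases JAK1 and TYK2 phosphorylate STAT2. With IRF9, STAT2 takes part in the complex ISGF3, which binds the interferon-stimulated response element (ISRE) in promoters. In the healthy brain the response runs at a low basal level, and microglia and endothelial cells are among the cells known to respond. Interferon gamma acts at a different element, the gamma-activated sequence (GAS).

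The labels and the tissue were checked first. The 5 deleted genes Chrna7, Otud7a, Klf13, Mtmr10 and Fan1 were all lower in KO, with log2 fold changes between -1.13 and -0.83 that passed the test over all genes. Library sums lay between 999789 and 999899 TPM, and depth is not kept in TPM, so no counting interval can be given. The 10 neuron markers together held 6280 to 7280 TPM in WT and 5820 to 7490 TPM in KO libraries. KO 1 stood farthest out on the leading principal component, with a score of 51.8 against 20.6 for KO 3, the next highest. At the other end were WT 5 at -30 and WT 7 at -23.1. In KO 1 and KO 8 the oligodendrocyte markers had medians 0.86 and 1.38 above the WT mean (log2), while those of the other 6 KO libraries lay between -0.82 and -0.26. The 10 oligodendrocyte markers together held 429 to 586 TPM in WT and 293 to 1450 TPM in KO libraries.

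Most of the low-abundance interferon-stimulated genes had lower levels in KO cortex, while the more abundant ones were divided between both directions. None passed the test. The genes were chosen with earlier results of these data known, so the counts beside the shares of all genes are a description. Of the 27 genes tested, 21 had a lower and 6 a higher mean in KO, against 45.3% lower and 54.7% higher among all 18656 genes tested. Their log2 fold changes ran from -0.71 for Irf7 to 0.18 for Ifi27 and Bst2, with a median of -0.20 against 0.02 over all genes tested. At a Benjamini-Hochberg adjusted limma p under 0.05, 0 of 27 were lower and 0 were higher, where 0.0268% of all genes tested were called lower and 0% higher. Before adjustment, 12 of 27 had a limma p under 0.05 and a lower KO mean and 0 had one with a higher KO mean, against 6.21% and 5.68% of all genes tested. In 0 of 27 genes did every KO library lie below every WT library, a pattern seen in 0.0911% of all genes tested, and in 0 did every KO library lie above every WT library, against 0.0429%. The 12 genes are Parp14, Trim30a, Trim25, Oasl2, Irf7, Sp100, Irf9, Ifit1, Gbp7, Ddx58, Gbp3 and Ifitm3. Parp14 passed the filter of 1 TPM only through WT, the group where it is high, and the other 11 reached 1 TPM in both groups. Without WT 7 the count was 7, and with KO 1 and KO 8 left out, an alternative added after the data were seen, 10 were lower and 1 (Herc6) was higher.

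The genes were also divided by abundance. Of the 19 genes averaging 1 to 5 TPM, 17 were lower and 2 higher, against 48.3% and 51.7% of all genes in that range. Of these 19 genes 10 were lower and 0 higher with an unadjusted limma p under 0.05, against 7.16% and 5.4%, and their median log2 fold change was -0.31. Parp14 is 1 of these 10 and the other 9 reached 1 TPM in both groups. Without WT 7 the 10 became 6, and with a pseudocount of 0.1 the median was -0.48. Of the 8 genes averaging at least 5 TPM, 4 were lower and 4 higher, against 43.9% and 56.1% of all genes at that level. Of these 8 genes 2, Irf9 and Ifitm3, were lower and 0 higher with an unadjusted limma p under 0.05, against 5.8% and 5.81%, and their median was -0.03. In 11 of 15 fits that left out 1 library, all but those without WT 2, WT 4, KO 3 or KO 7, Ifitm3 no longer had such a p and the 2 became 1, with 0.0957 as its highest p, without WT 7. The difference between the ranges of abundance was not tested. Values are on the log2(TPM + 1) scale, which shrinks the change of the lower genes.

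**Figure D1:**
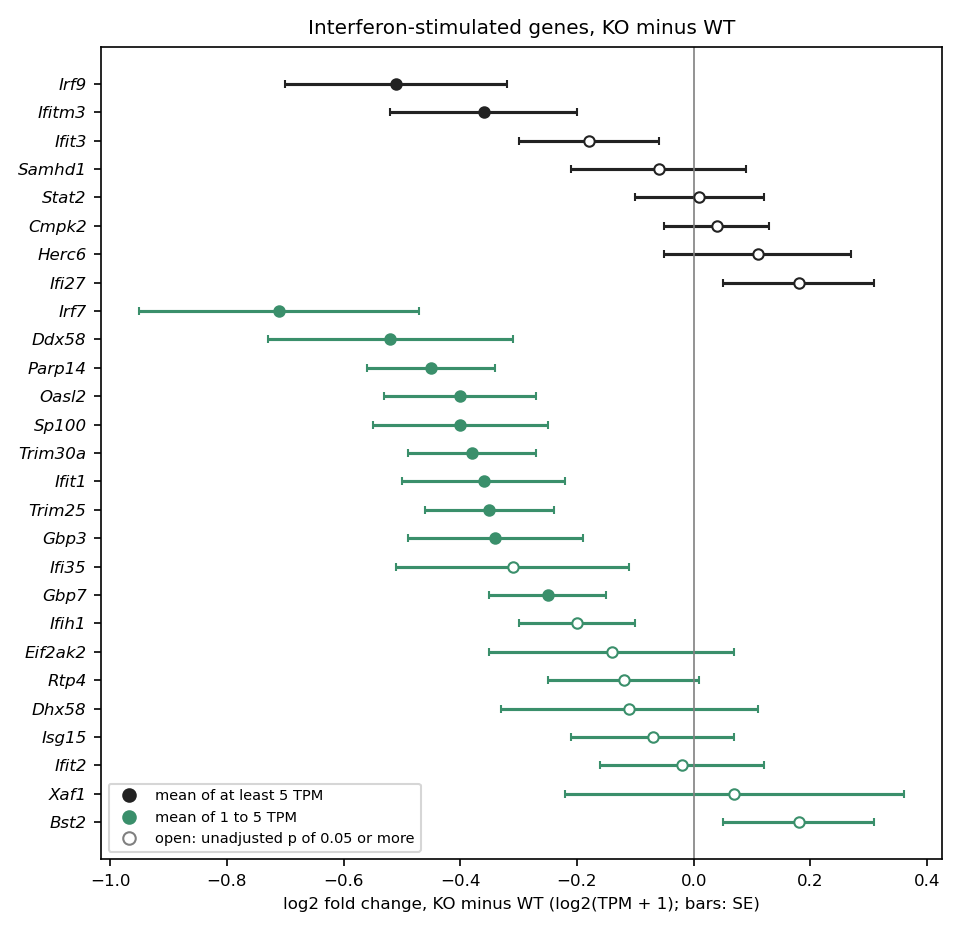
Log2 fold change of KO minus WT on the log2(TPM + 1) scale for the 27 tested interferon-stimulated genes, with the standard error as bars. Black points are the 8 genes averaging at least 5 TPM, green points the 19 with 1 to 5 TPM, and filled points have an unadjusted limma p under 0.05. Of the green points 17 lie left of 0, and of the black points 4.

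The promoters were read for the elements through which interferon acts. RefSeq windows (GRCm38.p6, from 250 bases before to 50 bases after the annotated start) were found for 27 of the 33 genes, 32 windows in all. For 22 of these windows the 30 bases after the start lay within a GENCODE transcript of that gene. An ISRE-like match was a pair of TTTC separated by any 2 bases, or its reverse complement, a pair of GAAA separated by any 2 bases. It was present in 14 of 27 genes, which is 51.9%, against 3.99% of all 27025 genes with a window. A GAS-like match, TTCNNNGAA, which reads the same on both strands, was present in 8 of 27 genes, or 29.6%, against 9.55% of all genes, and 5 genes held both. The match says only that the letters are there. The 5 windows printed here hold ISRE-like matches: the first 4 belong to genes with an unadjusted p under 0.05, and the last to Isg15, with a log2 fold change of -0.07. Capitals mark the ISRE-like matches, and overlapping matches run together. Each window is written in the direction of transcription.
Ifit1 (chr19:34640639-34640938, plus strand): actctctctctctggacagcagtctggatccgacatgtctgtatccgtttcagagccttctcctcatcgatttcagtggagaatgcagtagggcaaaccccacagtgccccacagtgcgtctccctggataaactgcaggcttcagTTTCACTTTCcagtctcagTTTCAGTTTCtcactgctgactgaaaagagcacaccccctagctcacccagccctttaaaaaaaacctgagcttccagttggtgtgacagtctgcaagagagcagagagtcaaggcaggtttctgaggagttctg
Gbp3 (chr3:142559794-142560093, plus strand): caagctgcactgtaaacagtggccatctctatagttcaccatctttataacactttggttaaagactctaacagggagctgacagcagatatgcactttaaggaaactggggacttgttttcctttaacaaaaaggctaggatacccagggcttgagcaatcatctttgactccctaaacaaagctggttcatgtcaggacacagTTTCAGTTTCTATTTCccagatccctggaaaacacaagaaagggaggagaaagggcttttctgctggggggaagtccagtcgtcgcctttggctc
Ddx58 (chr4:40239776-40240075, minus strand): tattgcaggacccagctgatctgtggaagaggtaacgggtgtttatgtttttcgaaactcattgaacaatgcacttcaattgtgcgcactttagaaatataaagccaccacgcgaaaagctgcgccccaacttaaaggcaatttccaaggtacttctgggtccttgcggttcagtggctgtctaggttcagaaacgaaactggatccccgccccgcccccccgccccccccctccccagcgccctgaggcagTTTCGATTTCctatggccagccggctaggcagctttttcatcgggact
Ifitm3 (chr7:141010695-141010994, minus strand): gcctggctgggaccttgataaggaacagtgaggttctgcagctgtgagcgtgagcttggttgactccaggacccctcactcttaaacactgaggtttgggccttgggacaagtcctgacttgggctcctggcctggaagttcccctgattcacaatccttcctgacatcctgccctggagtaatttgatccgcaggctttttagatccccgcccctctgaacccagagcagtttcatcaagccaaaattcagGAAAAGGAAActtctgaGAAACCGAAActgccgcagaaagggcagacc
Isg15 (chr4:156200769-156201068, minus strand): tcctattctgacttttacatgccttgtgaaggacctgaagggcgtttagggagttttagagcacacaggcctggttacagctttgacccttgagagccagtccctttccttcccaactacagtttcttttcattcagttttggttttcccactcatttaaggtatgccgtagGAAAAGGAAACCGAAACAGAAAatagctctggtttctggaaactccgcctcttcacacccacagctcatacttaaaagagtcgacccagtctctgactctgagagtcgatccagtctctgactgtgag

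Isg15 held 3 overlapping matches that end 57 bases before the start, and Ifit1 held 2 separate ones, the nearer ending 76 bases before it. In Ddx58 and Ifitm3 the matches lay between 2 and 28 bases after the start base. The 12 tested genes with an ISRE-like match had a median log2 fold change of -0.22, and 6 of them were lower at an unadjusted p under 0.05. The 11 tested genes whose windows held none had a median of -0.31 with 5 lower at that p, which are Irf7, Irf9, Oasl2, Trim25 and Sp100. These values are a description and were not tested. Both windows of Irf9 begin after its GENCODE start, so the bases before that start were not read. Half-sites at other spacings were not searched for, so a window without a match may still hold another form.

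**Figure D2:**
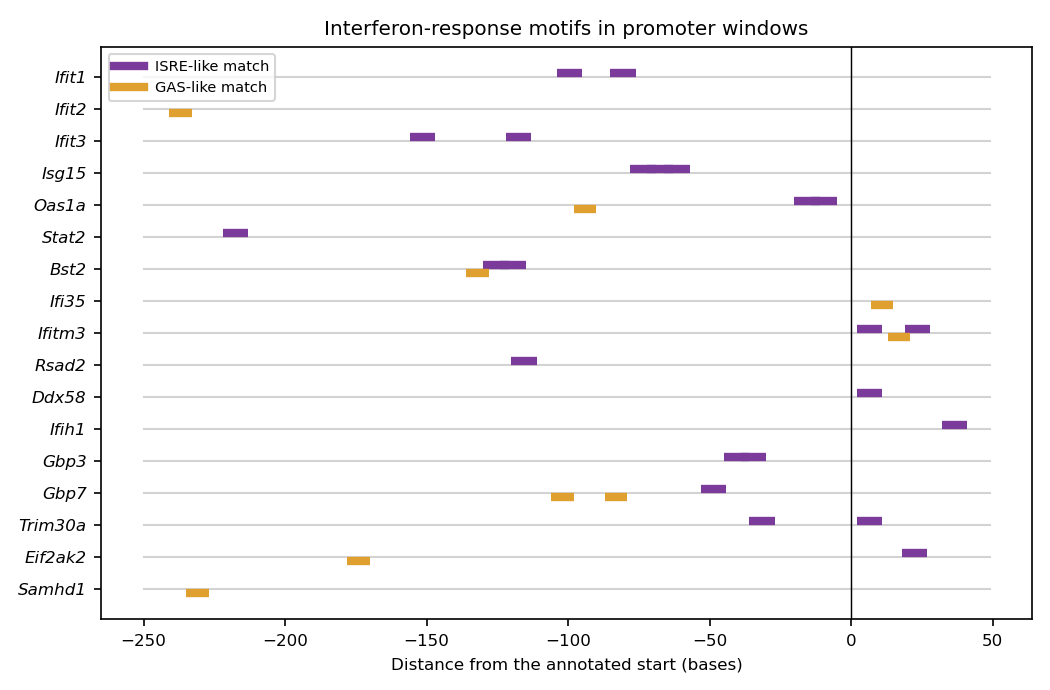
Positions of ISRE-like (purple) and GAS-like (yellow) matches in the promoter windows of the 17 interferon-stimulated genes that hold either, as distance in bases from the annotated start at 0. Trim30a has 2 windows drawn on 1 line. Isg15 shows 3 overlapping ISRE-like matches, and Bst2, Gbp3 and Oas1a 2 each that overlap.

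Of the transcription factors that carry the signal, Irf9 and Irf7 were lower at an unadjusted p under 0.05 and Stat2 was not. Irf9, the DNA-binding subunit of ISGF3 (ENSMUSG00000002325, mm10 chromosome 14, 55603571 to 55610030 in GENCODE M21, as for all gene positions here), ranged from 7.27 to 23.9 TPM in WT with a median of 11.8, and from 5.21 to 10.9 TPM in KO with a median of 8.88. Each of the 8 KO libraries lay under the WT mean on the log2 scale, but the groups overlap, and WT 5 stood above the next WT library at 15.4 TPM. Its log2 fold change was -0.51 ± 0.19 (SE; n = 7 and 8; limma adjusted p = 0.371), and -0.36 without WT 5. Irf9 overlaps Rnf31 by 123 bases on the same strand, so reads in that stretch cannot be assigned with certainty.

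Stat2, its partner in the complex (chromosome 10, 128270559 to 128292849), lay between 15.5 and 22.5 TPM in WT (median 21.2) and between 15.8 and 25.8 TPM in KO (median 19.1). The groups covered almost the same range, with a difference on the log2 scale of 0.01 ± 0.11 (SE; limma adjusted p = 0.976) that turned to -0.01 with median-of-ratios scaling.

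Irf7, the transcription factor that amplifies interferon production (ENSMUSG00000025498, chromosome 7, 141262706 to 141266481), had the lowest log2 fold change of all 27 genes. It ranged from 1.71 to 6.13 TPM in WT, with a median of 2.87, and from 0.725 to 4.31 TPM in KO, with a median of 1.38. KO 8 was at the KO maximum, above 5 of 7 WT libraries, and the next KO library was at 2.11 TPM, while WT 6 and WT 7 were the highest WT libraries. On the log2 scale the KO mean minus the WT mean was -0.71 ± 0.24 (SE; limma adjusted p = 0.336), and the KO mean was 49.7% of the WT mean. Irf7 overlaps Phrf1 by 45 bases on the opposite strand, and the strand setting of the counting is not given in the sources used here. It lies on the same chromosome as the deletion but 76.9 Mb beyond Fan1, as does Ifitm3 at 76.6 Mb and Trim30a at 40.0 Mb.

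Of the cytosolic RNA sensors 1 of 3 was lower at an unadjusted p under 0.05. Ddx58, which encodes the sensor RIG-I (chromosome 4, 40203773 to 40239828), ranged from 3.01 to 7.91 TPM in WT (median 5.66) and from 1.26 to 5.50 TPM in KO (median 3.49). WT 1 was highest and KO 1 lowest, and 3 KO libraries lay below every WT library. Its log2 fold change was -0.52 ± 0.21 (SE; limma adjusted p = 0.387), and in 4 of 15 fits without 1 library its unadjusted p was not under 0.05. Ifih1, a second sensor of double-stranded RNA, averaged 1.63 ± 0.260 TPM in WT libraries and 1.30 ± 0.302 TPM in the KO group (SD; log2 fold change -0.20 ± 0.10, limma adjusted p = 0.447). Dhx58, their regulator, averaged 1.2 ± 0.717 and 1.03 ± 0.573 TPM (SD; log2 fold change -0.11 ± 0.22, limma adjusted p = 0.842), with a coefficient of variation within groups of 58.1%, the highest of the 27 tested genes.

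Both genes of the TRIM family among the 33 were lower at an unadjusted p under 0.05. Trim25, a ubiquitin ligase that acts on RIG-I (chromosome 11, 88999376 to 89020293), ranged from 2.01 to 3.91 TPM in WT (median 2.37) and from 1.25 to 2.25 TPM in KO (median 1.93). Of the 8 KO libraries 7 lay below the lowest WT library, and WT 6 stood alone at the top. On the log2 scale the KO mean minus the WT mean was -0.35 ± 0.11 (SE; limma adjusted p = 0.322). Trim30a, a rodent member of the family (chromosome 7, 104409025 to 104465193), ranged from 1.27 to 2.31 TPM in WT (median 1.85) and from 0.806 to 1.72 TPM in KO (median 1.17). Each KO library lay under the WT mean and 4 below every WT library (log2 fold change -0.38 ± 0.11, limma adjusted p = 0.291). Related Trim30 genes lie beside it, and reads shared between them make its value less certain.

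Parp14, an ADP-ribosyltransferase (ENSMUSG00000034422, chromosome 16, 35832874 to 35871544), had the lowest p of the 27 genes, but was tested only because of its WT level: it averaged 1.45 ± 0.314 TPM in WT libraries and 0.800 ± 0.262 TPM in the KO group (SD). Its WT values ran from 1.09 to 1.78 TPM with a median of 1.57, and its KO values from 0.395 to 1.10 TPM with a median of 0.855. KO 7, at the KO maximum, was the only KO library not below the lowest WT library. Its log2 fold change was -0.45 ± 0.11 (SE; limma adjusted p = 0.259), at an unadjusted p of 0.00114. Its p stayed under 0.05 before adjustment in each fit without 1 library, with 0.00331 as the highest, without WT 1.

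Sp100, a component of nuclear bodies (chromosome 1, 85649988 to 85709998), ranged from 3.63 to 6.23 TPM in WT (median 5.23) and from 2.15 to 5.07 TPM in KO (median 3.64). The groups overlap, with 4 of 8 KO libraries below the lowest WT library (log2 fold change -0.40 ± 0.15; limma adjusted p = 0.35). Samhd1, which breaks down deoxynucleotides, ranged from 8.23 to 14.6 TPM in WT (median 11.2) and from 7.46 to 15.9 TPM in KO (median 10.1). KO 5 was above and KO 1 and KO 8 below all WT libraries. Its log2 fold change was -0.06 ± 0.15 (SE; limma adjusted p = 0.867).

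**Figure D3:**
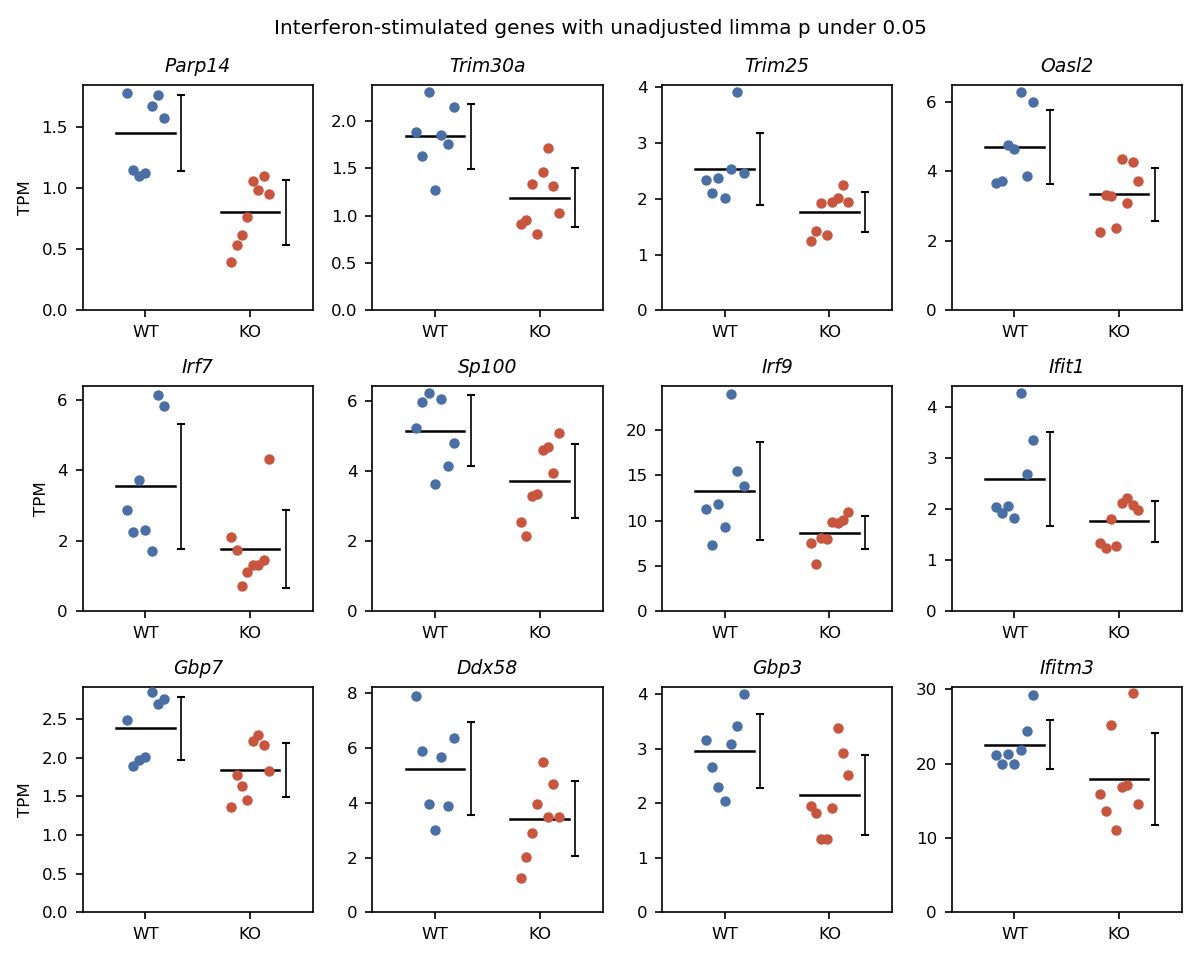
TPM of the 12 interferon-stimulated genes with an unadjusted limma p under 0.05, in order of p, in 7 WT (blue) and 8 KO (red) libraries. Each point is a library, horizontal lines are group means and the bars beside them the SD. In every panel the groups overlap, in Parp14 and Trim25 through 1 KO library each. In Parp14 that library, KO 7 at 1.10 TPM, reaches just over the lowest WT value of 1.09 TPM.

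The IFIT proteins, which bind viral RNA and block its translation, lie side by side on chromosome 19 and differed in their values. Ifit1 (34640871 to 34650009) ranged from 1.83 to 4.26 TPM in WT (median 2.06) and from 1.25 to 2.22 TPM in KO (median 1.89). WT 5 was the highest WT library, and leaving it out raised the unadjusted p to 0.0547 at a log2 fold change of -0.26, from -0.36 ± 0.14 (SE; limma adjusted p = 0.377). Ifit3 (34583531 to 34588731) ranged from 6.53 to 9.03 TPM in WT (median 7.31) and from 4.35 to 8.32 TPM in KO (median 6.91), with KO 1 lowest. The log2 fold change of Ifit3 was -0.18 ± 0.12 (SE; limma adjusted p = 0.536), and -0.11 without KO 1. Ifit2 averaged 4.82 ± 1.14 TPM in WT libraries and 4.68 ± 0.812 TPM in the KO group (SD; log2 fold change -0.02 ± 0.14, limma adjusted p = 0.962), with WT 1 alone at 2.44 TPM. Ifit3b, a close copy of Ifit3, was at -0.03 ± 0.11, and reads that fit both copies leave their values uncertain.

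Genes of the ISG15 system had values on both sides of 0. Isg15, the ubiquitin-like protein attached to other proteins under interferon (chromosome 4, 156199424 to 156200818), ranged from 2.18 to 4.87 TPM in WT (median 2.73) and from 2.46 to 3.78 TPM in KO (median 2.78), so that the KO values lay inside the WT range. The log2 fold change of Isg15 was -0.07 ± 0.14 (SE; limma adjusted p = 0.824). Herc6, which encodes the ligase that attaches it in mice (chromosome 6, 57581000 to 57664632), ranged from 17.0 to 23.9 TPM in WT (median 19.3) and from 11.4 to 30.1 TPM in KO (median 22.4). KO 8 was the lowest and KO 5 the highest of all libraries (log2 fold change 0.11 ± 0.16, limma adjusted p = 0.775), and without KO 1 and KO 8 the value was 0.31 ± 0.10 (SE; limma adjusted p = 0.33). Usp18, the protease that removes ISG15 and restrains the interferon receptor, averaged 0.717 TPM and was not tested, with 1.0 ± 0.340 TPM in WT libraries and 0.469 ± 0.316 TPM in the KO group (SD). Each of the 8 KO libraries lay under the WT mean of Usp18, and KO 5 was listed at 0.

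Among the oligoadenylate synthetase family, which senses double-stranded RNA and relays to RNase L or acts without that activity, only Oasl2 was abundant enough to test. Oasl2 (chromosome 5, 114896936 to 114912234) ranged from 3.65 to 6.29 TPM in WT (median 4.64) and from 2.26 to 4.35 TPM in KO (median 3.30). Each of the 8 KO libraries lay under the WT mean and 5 below every WT library (log2 fold change -0.40 ± 0.13, limma adjusted p = 0.33). Oasl1 and Oas1a averaged 0.167 and 0.264 TPM, and each was listed at 0 in 3 KO libraries, Oasl1 also in WT 7. Eif2ak2, the RNA-activated kinase PKR, averaged 3.23 ± 1.32 TPM in WT libraries and 2.82 ± 1.08 TPM in the KO group (SD; log2 fold change -0.14 ± 0.21, limma adjusted p = 0.776).

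The guanylate-binding proteins Gbp3 and Gbp7, GTPases that attack pathogen compartments, are neighbours on chromosome 3. Gbp3 (142560026 to 142573209) ranged from 2.04 to 4.0 TPM in WT (median 3.08) and from 1.34 to 3.38 TPM in KO (median 1.93), with KO 6, KO 7 and KO 8 among the WT values. Gbp7 (142530342 to 142550149) ranged from 1.90 to 2.85 TPM in WT (median 2.49) and from 1.36 to 2.30 TPM in KO (median 1.81), and each KO library lay under its WT mean. The log2 fold changes were -0.34 ± 0.15 for Gbp3 and -0.25 ± 0.10 for Gbp7 (SE; limma adjusted p = 0.388 and 0.378). In 7 of 15 fits without 1 library Gbp3 did not have an unadjusted p under 0.05, and in 2 of 15 for Gbp7. The GBP genes are similar in sequence, so reads may have been split among them.

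Membrane proteins that block viruses had values on both sides of 0. Ifitm3, which blocks the entry of viruses through endosomes (chromosome 7, 141009586 to 141010770), ranged from 19.9 to 29.2 TPM in WT (median 21.2) and from 11 to 29.4 TPM in KO (median 16.3). Of the KO libraries 6 lay below every WT library, while KO 7 was the highest of all 15 and KO 3 was above all but WT 7. The log2 fold change of Ifitm3 was -0.36 ± 0.16 (SE; limma adjusted p = 0.41), and Ifitm2, its close relative, was at -0.27 ± 0.19. Bst2, the tetherin that holds budding viruses at the cell surface, averaged 3.35 ± 0.696 TPM in WT libraries and 3.92 ± 0.857 TPM in the KO group (SD), a log2 difference of 0.18 ± 0.13 (SE; limma adjusted p = 0.564).

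Ifi27, a small membrane protein of mitochondria and nucleus (chromosome 12, 103434211 to 103440239), was the most abundant of the 33 genes. It lay within 27.2 to 33 TPM in WT (median 31.5) and between 27.4 and 56.7 TPM in KO (median 34.3). KO 1 was the highest library, followed by KO 5, and 3 further KO libraries were above every WT library by less. The log2 fold change of Ifi27 was 0.18 ± 0.13 (SE; limma adjusted p = 0.556), and 0.08 without KO 1. Cmpk2, a mitochondrial nucleotide kinase, varied least within groups of the 27 tested genes, at 12.3%. Cmpk2 ranged from 16.1 to 20.9 TPM in WT (median 18.3) and from 15 to 22.6 TPM in KO (median 19.6), a log2 difference of 0.04 ± 0.09 (SE; limma adjusted p = 0.873).

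Xaf1, an antagonist of the apoptosis inhibitor XIAP, varied widely among libraries of both groups. It ran from 1.75 to 6.63 TPM in WT and from 1.52 to 7.19 TPM in KO, with a coefficient of variation of 50.4% within groups and a log2 difference of 0.07 ± 0.29 (SE; limma adjusted p = 0.923). Ifi35 averaged 2.32 ± 0.704 TPM in WT libraries and 1.75 ± 0.759 TPM in the KO group (SD; log2 fold change -0.31 ± 0.20, limma adjusted p = 0.516), with KO 5 at 0.261 TPM, and the fold change was -0.16 without KO 5. Rtp4, a receptor transporter with antiviral action, averaged 2.78 ± 0.713 and 2.46 ± 0.533 TPM (SD; log2 fold change -0.12 ± 0.13, limma adjusted p = 0.699). Rtp4 overlaps Masp1 by 525 bases on the opposite strand. It also overlaps the processed transcript Gm45338, which averaged 0.931 TPM, by 39791 bases on the same strand.

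The remaining 3 genes under 1 TPM were Rsad2, Psmb9 and Mx1. Rsad2, which encodes the antiviral enzyme viperin, averaged 0.848 ± 0.206 TPM in WT libraries and 0.765 ± 0.199 TPM in the KO group (SD). Psmb9, an immunoproteasome subunit gene that overlaps Tap1 by 212 bases on the opposite strand, averaged 0.872 ± 0.521 and 0.705 ± 0.402 TPM (SD). Mx1, a GTPase that is defective in C57BL/6 mice, averaged 0.0854 TPM. In a fit with no filter on abundance, Usp18 had a log2 fold change of -0.46 ± 0.14 and Oas1a of -0.26 ± 0.09 (SE; limma adjusted p = 0.469 and 0.523), and the other 4 genes under 1 TPM lay between -0.13 and 0.03.

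By library, 4 of 8 KO libraries lay below the WT range. The mean log2(TPM + 1) over the 27 tested genes ran from 2.41 to 2.74 in WT and from 2.21 to 2.55 in KO. KO 1, KO 2, KO 3 and KO 4, at 2.25, 2.25, 2.29 and 2.21, lay below every WT library, and KO 5 to KO 8, between 2.46 and 2.55, lay within the WT range. KO 2 and KO 4 were each among the 5 lowest libraries for 19 of 27 genes, and KO 1 for 18. WT 5 and WT 7 were each among the 5 highest for 19 genes. KO 5 broke the pattern, as the highest library for 6 genes, among them Stat2, Herc6, Samhd1 and Cmpk2. These ranks describe the libraries and were not tested.

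**Figure D4:**
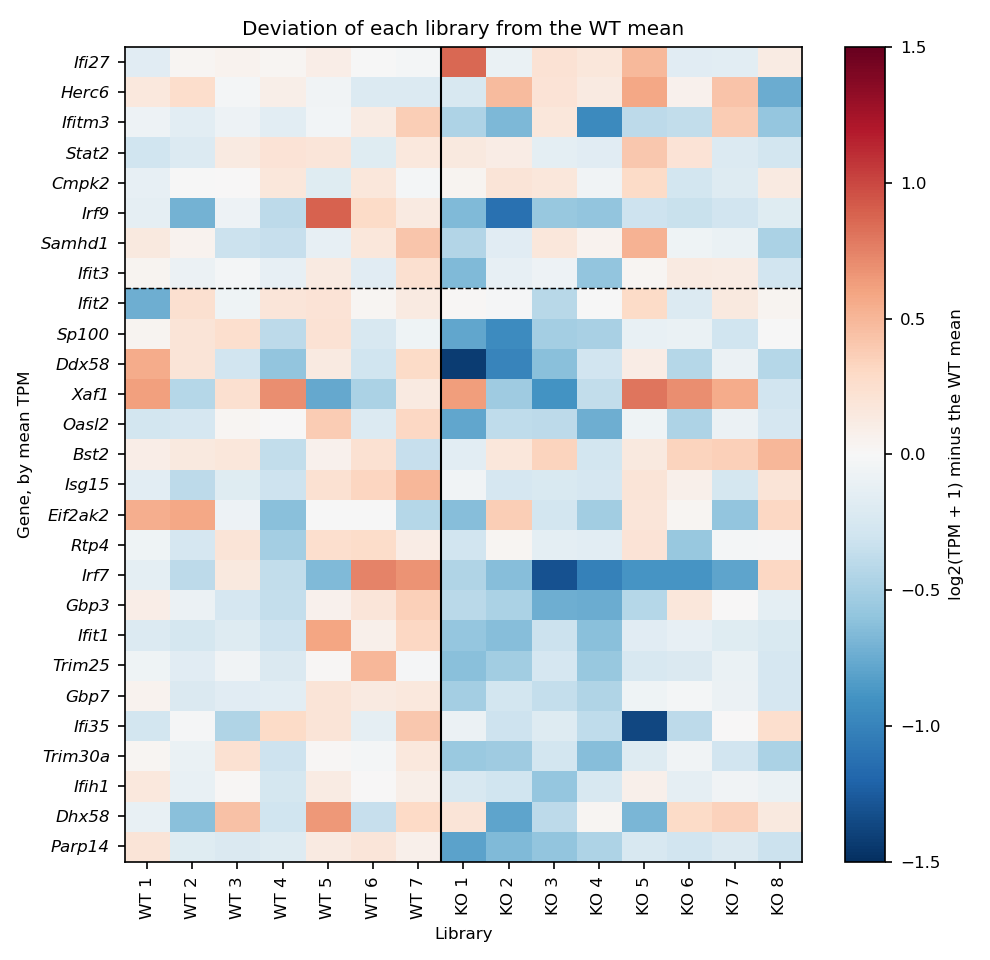
Log2(TPM + 1) of each of the 27 tested interferon-stimulated genes (rows, most abundant at the top) in each library (columns), minus the WT mean of the gene. Blue is below and red above the WT mean, the solid line divides WT from KO and the dashed line genes of at least 5 TPM from those below. Blue prevails in KO 1 to KO 4 below the dashed line, and Xaf1 varies in both groups.

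The rest of the pathway was examined in lists chosen by name, also with earlier results of these data known. For each list below, markers included, the share over all genes tested with a lower mean is 45.3%. At an unadjusted limma p under 0.05 the shares are 6.21% lower and 5.68% higher. Of 18 tested receptor and signalling genes 14 were lower and 4 higher, 1 lower at an unadjusted p under 0.05 and 0 past adjustment (limma), with a median log2 fold change of -0.08. That 1 gene is Il10rb, a subunit of the interferon lambda and interleukin receptors, at 10.6 ± 1.81 TPM in WT libraries and 7.73 ± 2.58 TPM in the KO group (SD; log2 fold change -0.45 ± 0.15, limma adjusted p = 0.336). The type I receptor subunits Ifnar1 and Ifnar2 were at -0.03 ± 0.09 and -0.02 ± 0.13, and their kinases Jak1 and Tyk2 at -0.01 ± 0.06 and 0.03 ± 0.08 (log2, SE). Irf5, Irf8, Jak2, Ifngr1 and Irf2, the next in order of p, were between -0.27 and -0.11. The count of 1 was 3 without WT 4, 2 without KO 2 and 2 without KO 3.

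Of 16 tested genes for nucleic acid sensing 9 were lower, 3 at an unadjusted p under 0.05, 0 higher at that p and 0 past adjustment (limma), with a median of -0.03. Tlr3, the endosomal receptor for double-stranded RNA, averaged 8.45 ± 3.37 TPM in WT libraries and 5.18 ± 1.03 TPM in the KO group (SD; log2 fold change -0.55 ± 0.18, limma adjusted p = 0.322), with each of the 8 KO libraries under the WT mean. The adaptor gene Traf3 was at -0.76 ± 0.27 and the kinase gene Ikbke at -0.26 ± 0.11, with limma adjusted p of 0.339 and 0.388. Ikbke averaged 1.25 TPM in WT libraries and 0.890 TPM in the KO group, so it reached the filter of 1 TPM only through WT. Traf6, Tlr7 and Tmem173, the gene of the adaptor STING, were at -0.14, -0.19 and -0.13. Of 21 interferon genes 0 reached a mean of 1 TPM, 14 were listed at 0 in every library, and the highest single value was 0.249 TPM.

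Of 35 tested interferon-stimulated genes outside the 33, 28 were lower and 7 higher, with a median log2 fold change of -0.22. Before adjustment 12 had a limma p under 0.05 and a lower mean and 1 a higher mean, and 0 passed adjustment. Of the 12, 11 reached 1 TPM in both groups, and Slfn5 did so in WT only. The immunity GTPase genes Irgm1 and Irgm2 were at -0.29 ± 0.08 and -0.37 ± 0.13, and Parp9 and Dtx3l, whose products work as a pair, at -0.41 ± 0.13 and -0.23 ± 0.08 (SE). Helz2, a helicase gene, was at -0.39 ± 0.13, and Zc3hav1, the zinc finger antiviral protein gene, at -0.33 ± 0.12, and the limma adjusted p of these 6 genes lay between 0.304 and 0.34. The higher gene was Daxx at 0.17 ± 0.07. Of 13 tested antigen presentation genes 9 were lower, 3 at an unadjusted p under 0.05 and 0 past adjustment (limma), with a median of -0.13. They are H2-Q4 at -0.36 ± 0.12, B2m, the light chain of MHC class I, at -0.18 ± 0.07 (206 ± 16.3 TPM in WT libraries and 182 ± 16.7 TPM in KO, SD) and H2-D1 at -0.22 ± 0.11, with limma adjusted p of 0.33, 0.371 and 0.42. Tap2, Erap1 and Psme1 were at -0.23, -0.16 and 0.17. MHC genes are similar in sequence, so these values are uncertain.

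**Figure D5:**
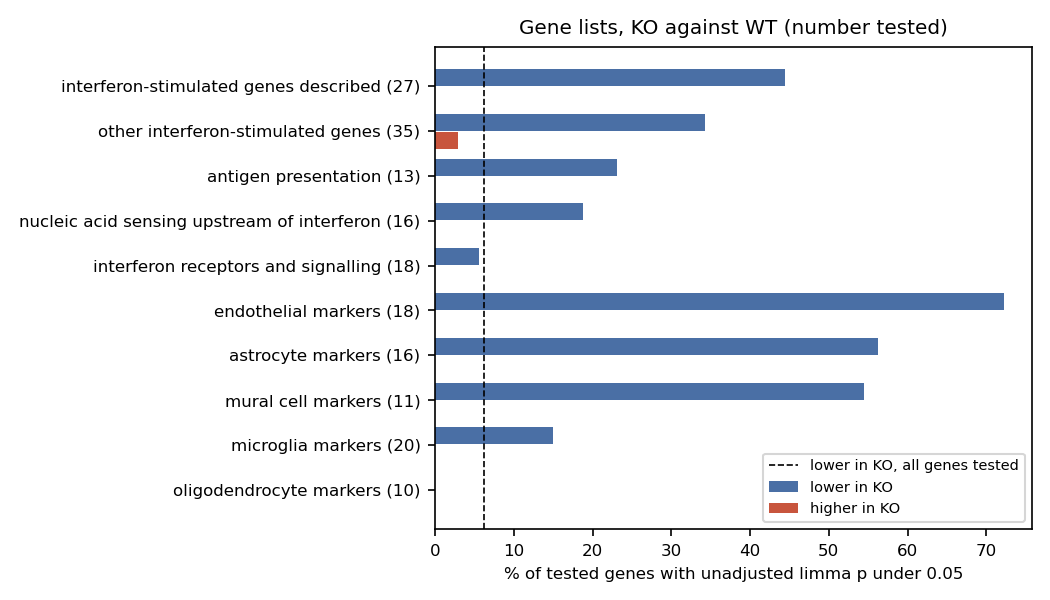
Share of tested genes with an unadjusted limma p under 0.05 that were lower (blue) or higher (red) in KO, for the interferon-stimulated genes (top bar) and the lists set beside them, with the number tested in brackets. The dashed line is the share lower among all genes tested, 6.21%. The interferon-stimulated genes stand at 44.4%, endothelial markers at 72.2% and receptor and signalling genes at 5.56%.

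Markers of other cell types were examined in the same libraries, and none passed adjustment (limma). Of 18 endothelial markers 17 had a lower mean in KO, 13 at an unadjusted limma p under 0.05, and the lowest limma adjusted p was 0.206. With the replicate number as a block 1 of the 18 passed. Their summed level was 295 to 428 TPM in WT and 210 to 347 TPM in KO libraries. In KO 1, KO 2, KO 3 and KO 4, where the mean of the interferon-stimulated genes was below every WT library, the endothelial markers had medians of -0.65, -0.54, -0.34 and -0.77 from the WT mean (log2). In KO 5, KO 6, KO 7 and KO 8 these medians were -0.46, -0.38, -0.14 and -0.32. WT 4, the lowest WT library for the interferon-stimulated genes, had the lowest WT median of the endothelial markers, -0.30. It also had the lowest WT medians of astrocyte, microglia and oligodendrocyte markers, at -0.14, -0.19 and -0.23, but not of mural markers, at -0.07. KO 5, with the highest KO mean of the interferon-stimulated genes, 2.55, had a lower endothelial median than KO 3. In tissue punches fewer cells of a type and less RNA per cell cannot be told apart.

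All 11 mural markers had a lower mean, 6 at an unadjusted limma p under 0.05, with sums of 169 to 227 TPM in WT and 122 to 208 TPM in KO. Mural medians from the WT mean (log2) were -0.68, -0.47, -0.24 and -0.67 in KO 1 to KO 4. In KO 5 to KO 8 they were -0.38, -0.32, -0.03 and -0.11. Of 16 astrocyte markers 13 had a lower mean, 9 at that p, with sums of 2330 to 3040 and 1980 to 2610 TPM. Astrocyte medians were -0.36, -0.25, -0.14 and -0.50 in KO 1 to KO 4, and -0.16, -0.07, -0.03 and -0.17 in KO 5 to KO 8. Of 20 microglia markers 15 had a lower mean, 3 at that p, with sums of 467 to 631 and 495 to 588 TPM, and their medians by KO library lay between -0.23 and 0.08. The lowest limma adjusted p of these lists was 0.206, 0.259 and 0.311 in turn. Without WT 4 the 3 microglia markers became 7, and it was 5 without WT 2 and 6 without KO 3. No gene of these 4 lists was listed at 0 throughout. Of 10 oligodendrocyte markers 9 had a lower mean, 0 at that p, and 10 at that p without KO 1 and KO 8. The 9 became 4 without KO 5 and 4 without KO 6. Of 10 neuron markers 8 had a lower mean, 3 at that p, which are Gad2, Gad1 and Camk2a. Of the 2 with a higher mean 1, Neurod2, had such a p.

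Border macrophage markers summed to 3.72 to 16.3 TPM in WT and 1.89 to 12.6 TPM in KO, and 4 of 4 tested had a lower mean, but 2 of 4 without WT 5 and 2 of 4 without KO 2. Mrc1 was at -0.52 ± 0.17 (SE; limma adjusted p = 0.322). F13a1 averaged 1.35 TPM in WT libraries and 0.836 TPM in the KO group, so it reached the filter of 1 TPM only through WT. Cbr2 and Pf4 were at -0.14 ± 0.39 and -0.01 ± 0.47 (SE). Lymphocyte markers summed to 16.5 to 27.1 TPM in WT and 17.6 to 36.6 TPM in KO, mostly the T-cell receptor constant gene Trbc2. Cd3d and Gzmb were listed at 0 in every library. Of 2 lymphocyte markers tested 0 had a lower and 2 a higher mean, Trbc2 at 0.25 ± 0.18 and Trac at 0.11 ± 0.25 (SE). The 0 lower became 1 without WT 5 and 1 without KO 6. All 10 meningeal fibroblast markers and all 5 blood markers had a lower mean, with sums of 83.8 to 289 TPM in WT and 38.7 to 219 TPM in KO, and of 799 to 2790 and 391 to 1450 TPM. The part of any of these cell types in the values of the interferon-stimulated genes was not tested.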

How the data were processed

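RNA-seq libraries of 7 WT and 8 KO mice were analysed from a table in which the authors deposited TPM values per Ensembl gene and library. The tools named per the submitters' processing notes are Trimmomatic, HISAT2 and StringTie, on build mm10. No version, annotation or strand setting is stated in the sources used. TPM keeps no read depth and divides by transcript length and library total, so no count model was used, and precision comes from the spread between libraries.

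Of 54838 rows, 54723 matched a GENCODE M21 symbol, and rows sharing a symbol were summed. The 18656 genes that averaged 1 TPM or more were analysed as log2(TPM + 1) with limma 3.58.1 in R 4.3.3 (intensity trend, two-sided, Benjamini-Hochberg over all of them, threshold 0.05), a fit also tested on simulated data. No p was adjusted over the 33 genes alone. Promoter windows came from RefSeq (GRCm38.p6) and were searched with Python 3.11.15. All 33 genes are named. Of related lists, the up to 6 genes of lowest p are named (a further named gene is not reported here), and the type I receptor genes, their kinases, Ifit3b, Ifitm2, Daxx and Slfn5 were added after their values were seen. The members and lists were chosen with earlier results of these data known. Alternatives covered the pseudocount, filter, scaling, variance prior, weights, replicate block, merging of rows and each library left out. The fit without KO 1 and KO 8 was added after seeing the data.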

Additional observations from a re-analysis of the deposited data

Results flagged for a closer look

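Single libraries stood apart for 3 of the 27 tested genes, each by a gap to the nearest library of its group that exceeded Dixon's critical value. Of 54 groups examined, 3 were found, and chance flags about 1 in 20 groups, or 2.7 of 54. Ifit2 was at 2.44 TPM in WT 1, with the nearest WT library at 4.45 TPM, a gap of 0.613 of the range. Irf7 was at 4.31 TPM in KO 8, with the nearest KO library at 2.11 TPM, a gap of 0.613 of the range, and without KO 1 and KO 8 its log2 fold change was -0.92. Trim25 was at 3.91 TPM in WT 6, with the nearest WT library at 2.53 TPM, a gap of 0.725 of the range, and its log2 fold change was -0.27 without WT 6.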

How the results depend on the processing

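No interferon-stimulated gene passed adjustment under any of the alternatives run, and the lowest adjusted limma p was 0.122, for Irf9 with the replicate block. Of 710 values of single genes under other settings 24 turned direction, in 6 genes, and 21 genes kept theirs in all settings. Stat2 turned to -0.01 with median-of-ratios scaling and to -0.0014 with quantile normalization, and Samhd1 to 0.07 without KO 1 and KO 8. Without 1 library in turn, Stat2 ran from -0.05 to 0.05, Ifit2 from -0.14 to 0.04, Isg15 from -0.14 to 0.01, Samhd1 from -0.14 to 0.01, Xaf1 from -0.05 to 0.21 and Dhx58 from -0.21 to 6.5e-05. The count lower at an unadjusted p, 12, ran from 7 (without WT 7) to 13 in these fits, and the median from -0.243 to -0.176. The median was -0.322 with a pseudocount of 0.1 and -0.252 with 0.5, against -0.198 with 1. Values of other genes that moved by over 1.5 times without 1 library, beside those in the report, ran from 0.00046 to 0.08 for Cmpk2, from -0.24 to -0.04 for Eif2ak2, from 0.04 to 0.23 for Herc6 and from -0.21 to -0.06 for Rtp4. Among genes averaging 5 TPM or more the count was 2 and the median -0.026, since 8 genes remain. The count higher at an unadjusted p was 1 without KO 1 and KO 8. With the replicate block 11 genes were lower at an unadjusted p, 0 were called and the median was -0.211. Same-numbered libraries share only a number: their deviations correlated between -0.0425 and 0.122, and 0 of 7 WT libraries correlated best with their own number. TPM keeps no depth, so the counting error of genes near 1 TPM is unknown.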
